A study of Mus musculus with 24 samples.

Results

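A set of 8 genes used as markers of pericytes were followed across 8 sorted stromal fractions of the mouse intestine: Rgs5, Rgs4, Kcnj8, Abcc9, Cspg4, Mcam, Higd1b and Ndufa4l2. They were taken from the deposited table of estimated counts by matching Ensembl gene IDs to these symbols, which gave 8 of 54418 genes, and all 8 passed the low-count filter that left 19050 genes for testing. RNA was measured in 24 libraries, 3 per group, from small intestine or colon of C57Bl6 mice aged 8 to 12 weeks. The cells were stromal, negative for Epcam and CD45, and were separated by CD31, the endothelial surface protein made from Pecam1, and by GFP from a transgene reporting Rspo3, which encodes a secreted enhancer of WNT signalling. Each tissue gave a CD31- Rspo3- fraction, a CD31- Rspo3+ fraction, a CD31+ Rspo3- fraction and a CD31+ Rspo3+ fraction. Whether the 3 libraries in each group are separate animals is not stated, so p-values measure only the spread between libraries, which may be technical.

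Pericytes are mural cells that wrap capillaries and regulate their tone and stability. Kcnj8 encodes the pore subunit Kir6.1 and Abcc9 the sulphonylurea receptor SUR2, which assemble into an ATP-sensitive potassium channel that couples cell metabolism to membrane potential in vascular mural cells. Rgs5 and Rgs4 encode regulators of G protein signalling that shorten signals from vasoactive receptors. Cspg4 encodes the NG2 proteoglycan and Mcam the adhesion molecule CD146, both surface proteins used to sort pericytes, and CD146 is also present on endothelium. Higd1b and Ndufa4l2 encode mitochondrial proteins. That of Ndufa4l2 is related to a subunit of the respiratory chain, and Ndufa4l2 is a known target of hypoxia-inducible factor.

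Both channel subunits lie beside each other in the genome, as do Rgs5 and Rgs4, so the promoter windows of these pairs are shown. In the GENCODE M21 annotation of GRCm38, Kcnj8 (ENSMUSG00000030247) spans chr6:142564837-142571614 and Abcc9 (ENSMUSG00000030249) chr6:142587862-142702315, both on the minus strand, with 16247 bp and no annotated gene between them. Rgs5 (ENSMUSG00000026678) spans chr1:169655501-169695813 on the plus strand and Rgs4 (ENSMUSG00000038530) chr1:169741477-169747642 on the minus strand, 45663 bp apart and again with no annotated gene between. The windows below are the 250 bases before the RefSeq start of each gene (GRCm38.p6), written 5′ to 3′ on the strand of the gene, with capitals for matches to the motifs searched.
Kcnj8 (chr6:142571615-142571864, minus strand): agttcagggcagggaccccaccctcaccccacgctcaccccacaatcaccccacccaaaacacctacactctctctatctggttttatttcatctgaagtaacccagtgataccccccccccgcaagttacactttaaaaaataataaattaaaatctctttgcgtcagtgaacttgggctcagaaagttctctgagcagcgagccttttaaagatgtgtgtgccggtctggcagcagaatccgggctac
Abcc9 (chr6:142702275-142702524, minus strand): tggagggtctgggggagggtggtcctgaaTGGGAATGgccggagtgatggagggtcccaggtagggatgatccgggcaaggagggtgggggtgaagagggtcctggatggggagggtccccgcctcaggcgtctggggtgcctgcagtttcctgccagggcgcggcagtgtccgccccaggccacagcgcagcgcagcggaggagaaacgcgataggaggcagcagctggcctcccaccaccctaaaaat
Rgs5 (chr1:169655251-169655500, plus strand): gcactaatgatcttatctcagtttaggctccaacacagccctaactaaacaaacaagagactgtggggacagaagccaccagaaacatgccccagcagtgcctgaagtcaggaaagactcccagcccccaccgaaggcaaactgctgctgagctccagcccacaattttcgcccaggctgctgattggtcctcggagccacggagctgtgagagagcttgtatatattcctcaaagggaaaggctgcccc
Rgs4 (chr1:169747643-169747892, minus strand): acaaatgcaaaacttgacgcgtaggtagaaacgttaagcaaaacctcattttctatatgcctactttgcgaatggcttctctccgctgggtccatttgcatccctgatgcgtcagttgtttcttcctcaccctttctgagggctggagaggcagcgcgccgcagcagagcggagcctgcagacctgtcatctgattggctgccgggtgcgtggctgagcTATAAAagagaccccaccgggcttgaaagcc
The GC content was 49.2% in the Kcnj8 window and 66.8% in the Abcc9 window, and 53.6% in both Rgs windows. A set of 6 motifs was searched on both strands: the HIF core ACGTG, the RBPJ core TGGGAA, the TEAD core GGAATG, the AP-1 site TGANTCA, the CArG box and the TATA box TATAAA. In the Abcc9 window, TGGGAA at -221 and GGAATG at -219, counted back from the start, overlap each other. The Rgs4 window holds TATAAA at -31. Of 32851 RefSeq promoter windows of the same length, 21.6% held TGGGAA, 12.6% GGAATG and 12.4% TATAAA, and these matches describe letters only. The windows of Kcnj8, Rgs5, Cspg4 and Mcam held none of the motifs, which says only that these letters are not in those windows.

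The other members are Cspg4 (ENSMUSG00000032911, chr9:56865033-56899870, plus strand), Mcam (ENSMUSG00000032135, chr9:44134469-44142727, plus strand), Higd1b (ENSMUSG00000020928, chr11:102835849-102838040, plus strand) and Ndufa4l2 (ENSMUSG00000040280, chr10:127514967-127517154, plus strand). The library kit does not mark strand, and 3 members overlap a gene on the other strand, so shared reads could be split between the partners. For Abcc9 the partner 5330439B14Rik was at most 0.0619 CPM, for Mcam the partner Gm10687 at most 5.98 CPM, and for Ndufa4l2 the partner Shmt2 was at 21.6 to 48.5 CPM.

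Library totals ran from 8462041 to 29214487 counts, with a median of 17881736. The CD31 and Rspo3 signs of the sort held in the data. Pecam1 was at 347 to 1486 CPM (counts scaled to library size) in CD31+ libraries and at 8.18 to 43.9 CPM in CD31- libraries. Rspo3 was at 139 to 449.9 CPM in reporter-positive and 11.1 to 24.1 CPM in reporter-negative libraries. RNA of epithelial markers, a list that includes Epcam, was present despite the Epcam gate. Its sum was 4319 to 7157 CPM in small intestinal and 1195 to 4375 CPM in colonic CD31- Rspo3- cells. All 8 lymphatic endothelial markers passed the test upward in CD31+ Rspo3+ cells of both tissues, where the sum of the list was 31115 to 51132 CPM against 2067 to 6150 CPM in CD31+ Rspo3- cells. A pair of libraries stood apart by markers of other cells. Colon CD31- Rspo3+ library 3 had a leukocyte marker sum of 1219 CPM against 54.4 and 78.6 CPM in the other 2, and colon CD31+ Rspo3- library 3 had a fibroblast marker sum of 9191 CPM against 1379 and 1804 CPM. The former library also had a lower fibroblast sum, 35662 CPM against 63805 and 65289 CPM. Its Rspo3 was at 139 CPM against 234 and 267 CPM, and its Pecam1 at 43.9 CPM against 19.2 and 12.9 CPM. In bulk RNA, fewer cells of a type and less RNA per cell cannot be told apart.

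Kcnj8, the channel pore, was highest by far in the small intestinal CD31+ Rspo3+ fraction. There 5 of the other members had their lowest means, and of these only Ndufa4l2 did not overlap the group next above. Rgs5, Rgs4 and Cspg4 did not pass between colonic and small intestinal CD31+ Rspo3+ cells (edgeR adjusted p = 0.517, 0.419 and 0.603). In small intestine the Kcnj8 levels in the 3 libraries were 318, 365 and 331 CPM in CD31+ Rspo3+ cells against 18.9, 20.6 and 28.8 CPM in CD31+ Rspo3- cells. Among CD31- cells of the same tissue they were 30.5, 28.9 and 30.9 CPM with the reporter and 58.5, 51.8 and 34.8 CPM without it. The Rspo3+ libraries were thus above every CD31+ Rspo3- library, and below every Rspo3- library among CD31- cells. Kcnj8 was 14.9-fold higher in CD31+ Rspo3+ than in CD31+ Rspo3- cells (log2 fold change 3.89, SE 0.23, edgeR quasi-likelihood adjusted p = 7.97e-10), and fell by 0.68 (log2, SE 0.21, adjusted p = 0.0155) in the CD31- comparison. The latter call was lost without CD31- Rspo3- library 1 (adjusted p = 0.0934) or without CD31- Rspo3+ library 2 (adjusted p = 0.0555).

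In colon, Kcnj8 was at 61.4, 86.3 and 81.1 CPM in CD31+ Rspo3+ cells and at 42.9, 35.5 and 59.9 CPM in CD31+ Rspo3- cells. The CD31- libraries gave 10.7, 14 and 13.3 CPM with the reporter and 50.7, 54.8 and 61.1 CPM without it. Neither pair of colon groups overlapped, but the CD31+ gap was narrow, with 59.9 CPM in the highest Rspo3- library and 61.4 CPM in the lowest Rspo3+ library. Kcnj8 rose by 0.73 (log2, SE 0.21, edgeR adjusted p = 0.0138) with the reporter in CD31+ cells and fell by 2.12 (SE 0.22, adjusted p = 4.01e-06) in CD31- cells. The colon CD31+ call was lost in 4 of 11 alternatives, without Rspo3- library 1 (adjusted p = 0.0593), Rspo3- library 2 (0.0839), Rspo3+ library 2 (0.0677) or Rspo3+ library 3 (0.0512), with log2 values from 0.57 to 1.01 over all alternatives. Without colon CD31+ Rspo3- library 3, which had the high fibroblast sum, the log2 change was 1.01 (adjusted p = 0.00255). The reporter difference in CD31+ cells was smaller in colon than in small intestine by 3.17 (log2, SE 0.30, adjusted p = 1.28e-05), and 1.93% of all genes passed that interaction test.

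Abcc9, the regulatory subunit, varied least among the 8 genes, with a 4.39-fold range between its highest and lowest group means. In small intestine Abcc9 was at 25.2, 42.1 and 21.9 CPM in CD31+ Rspo3+ cells, 14.8, 7.75 and 14.7 CPM in CD31+ Rspo3- cells, 29.9, 31.3 and 19.2 CPM in CD31- Rspo3+ cells, and 37.6, 27.8 and 29.6 CPM in CD31- Rspo3- cells. In colon the levels were 8.96, 6.20 and 12.7 CPM, 41.5, 36.2 and 44.5 CPM, 21.8, 21.1 and 14.7 CPM, and 36.1, 57.4 and 27.6 CPM in the same order. The CD31+ groups did not overlap within either tissue, and they were ordered in opposite directions. Abcc9 rose 2.40-fold in small intestinal CD31+ Rspo3+ cells (log2 1.26, SE 0.33, edgeR adjusted p = 0.00864) and was 4.38-fold lower in the colonic ones (log2 -2.13, SE 0.34, adjusted p = 7.94e-05). The small intestinal call was lost without CD31+ Rspo3+ library 2 (log2 0.92, adjusted p = 0.0584). The tissue difference of the reporter effect passed its own test (log2 -3.39, SE 0.47, edgeR adjusted p = 0.000521). In small intestinal CD31- cells Abcc9 did not pass (log2 -0.24, SE 0.32, edgeR adjusted p = 0.626), and the groups overlapped. In colon CD31- cells Abcc9 fell by 1.07 (log2, SE 0.32, edgeR adjusted p = 0.0434), a call lost in 7 of 11 alternatives (adjusted p up to 0.207), among them when only the compared libraries were fitted and without Rspo3- library 1, Rspo3- library 2 or any 1 of the Rspo3+ libraries.

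**Figure D1:**
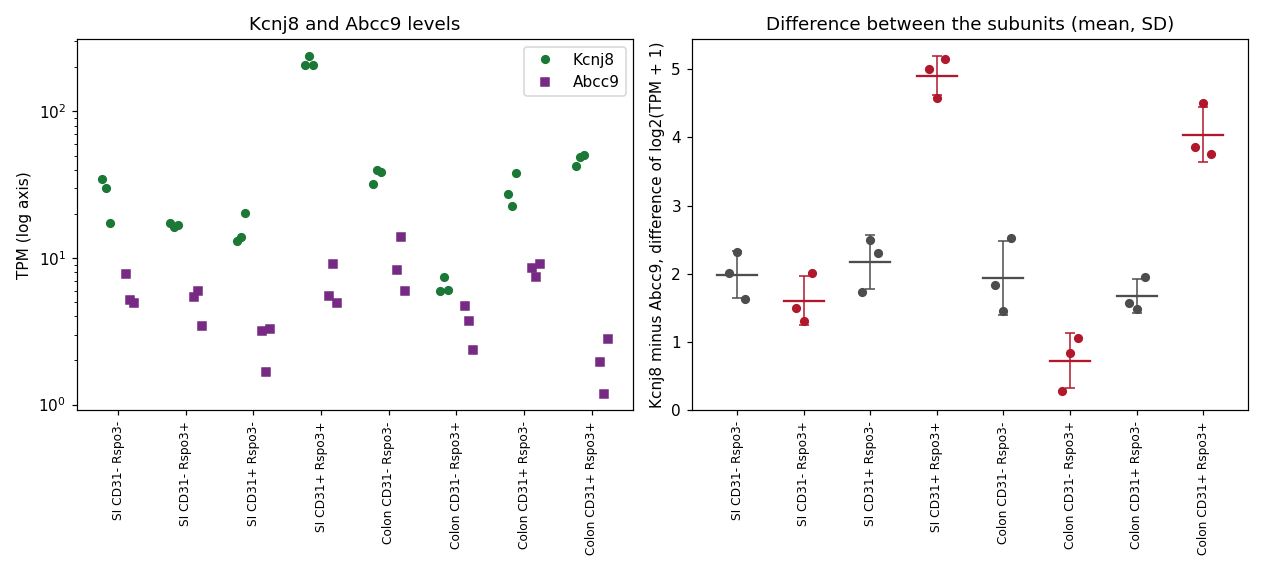
Left, TPM (log axis) of Kcnj8 and Abcc9 in each library of the 8 groups. Right, the difference of log2(TPM + 1) between Kcnj8 and Abcc9 per library, with group mean and SD (n = 3), red for Rspo3+ and grey for Rspo3- groups; the CD31+ Rspo3+ groups average 4.91 in small intestine and 4.04 in colon.

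Compared per length, Kcnj8 transcripts exceeded Abcc9 transcripts in every library, but by very different factors. The ratio of Kcnj8 to Abcc9 TPM (transcript abundance per length and depth) was 37.5, 26.5 and 42.3 in small intestinal CD31+ Rspo3+ libraries and 21.5, 40.8 and 18 in colonic ones. In the other 6 groups it ran from 1.27 to 8.42, so that no library of those groups reached the range of the CD31+ Rspo3+ libraries. As a difference of log2(TPM + 1), the Rspo3+ CD31+ libraries were above the Rspo3- CD31+ libraries by 2.55 on average, by 2.73 in small intestine and 2.37 in colon. The exact two-sided permutation test within tissue gave p = 0.005, the smallest that its 400 arrangements can give. It treats libraries as unpaired, and a paired version is given in the closing section. In CD31- cells the same difference was -0.79, with -0.38 in small intestine and -1.20 in colon (exact p = 0.01, a call lost under 1 alternative given in the closing section). The difference thus rose with the reporter in CD31+ cells of both tissues. In CD31- cells it fell on average, without overlap of the libraries in colon. The small intestinal CD31- libraries overlapped, at 1.31 to 2.01 with the reporter and 1.64 to 2.32 without it. In small intestinal CD31+ cells Kcnj8 and Abcc9 both rose, Kcnj8 by more, and in colonic CD31+ cells Kcnj8 rose and Abcc9 fell.

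The subunits that can replace them in other ATP-sensitive channels were near the floor. Kcnj11, which encodes Kir6.2, did not pass the low-count filter and had at most 0.587 CPM in any library. Abcc8, which encodes SUR1, had at most 1.91 CPM and was listed at 0 in all 6 CD31+ Rspo3+ libraries.

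Rgs5, a widely used pericyte marker, fell in CD31+ cells with the reporter in both tissues but did not fall in small intestinal CD31- cells. In small intestine its levels were 9.13, 21.4 and 10.7 CPM in the CD31+ Rspo3+ group, 265, 223 and 236 CPM in CD31+ Rspo3-, and among CD31- cells 231, 273 and 280.2 CPM with the reporter against 218, 207 and 163 CPM without it. In colon they were 25.3, 14.5 and 14.8 CPM, 566, 309.9 and 448 CPM, 23.7, 39.2 and 40.2 CPM, and 179.7, 199 and 139.5 CPM in the same order. In all, 3 of the 4 small intestinal fractions were therefore high, against the 2 Rspo3- fractions of colon. Rgs5 was 17.5-fold lower with the reporter in small intestinal CD31+ cells (log2 -4.13, SE 0.33, edgeR adjusted p = 2.34e-08) and 24.2-fold lower in colonic CD31+ cells (log2 -4.60, SE 0.34, adjusted p = 9.30e-09). Among CD31- cells the log2 change was 0.41 (SE 0.29, adjusted p = 0.309) in small intestine and -2.33 (SE 0.31, adjusted p = 6.50e-05) in colon. That tissue difference passed the interaction test (log2 -2.74, SE 0.42, edgeR adjusted p = 0.00039), as did 8.38% of all genes. Without colon CD31- Rspo3+ library 3, the library with the high leukocyte sum, the colonic change was -2.45 (adjusted p = 0.000181).

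Rgs4, the neighbour of Rgs5, was low in all 4 Rspo3+ fractions. In small intestine it was at 1.06, 5.70 and 4.39 CPM in the CD31+ Rspo3+ group, 125, 117 and 137 CPM in CD31+ Rspo3-, and among CD31- cells 4.56, 5.63 and 10.6 CPM with the reporter against 31.4, 39.2 and 29.9 CPM without it. In colon the values were 9.02, 5.11 and 4.33 CPM, 179, 99.6 and 155 CPM, 8.10, 5.18 and 11.1 CPM, and 75.5, 62.1 and 35.5 CPM in the same order. Every Rspo3+ library was below every Rspo3- library of its tissue and CD31 sign. Rgs4 was 34.7-fold lower with the reporter in small intestinal CD31+ cells (log2 -5.12, SE 0.52, edgeR adjusted p = 4.39e-07) and 23.5-fold lower in colonic ones (log2 -4.55, SE 0.50, adjusted p = 1.08e-06). In CD31- cells the log2 changes were -2.27 (SE 0.45, adjusted p = 0.000746) and -2.82 (SE 0.46, adjusted p = 0.000592). In small intestinal CD31- Rspo3+ cells the 2 neighbours thus parted, with Rgs5 at 231 to 280.2 CPM and Rgs4 at 4.56 to 10.6 CPM, levels that are not set against each other per length here.

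**Figure D2:**
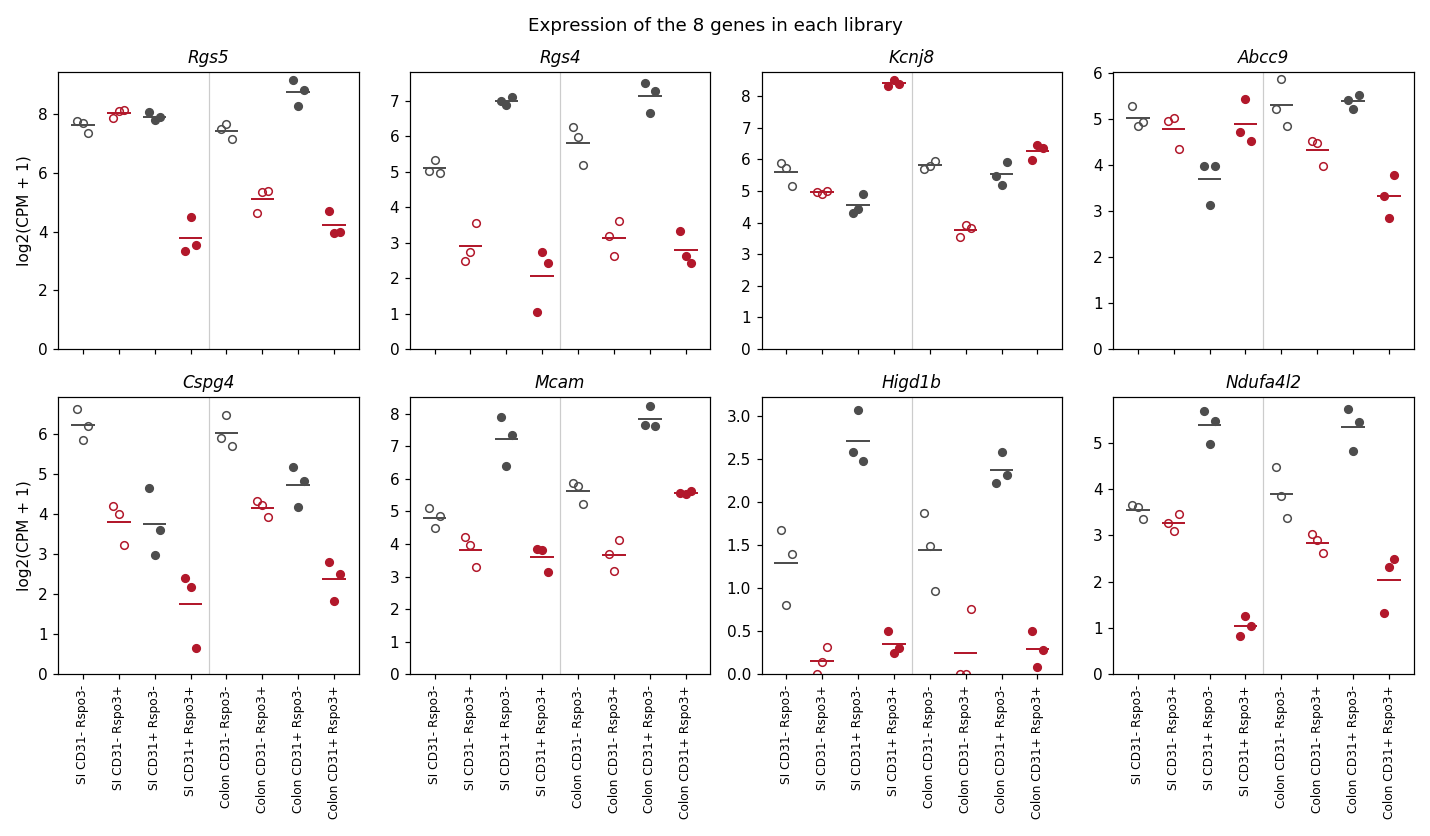
log2(CPM + 1) of the 8 genes in each library, in the 8 groups on the horizontal axis; circles are libraries, filled for CD31+ and open for CD31-, red for Rspo3+ and grey for Rspo3-, and bars are means of 3 libraries. Kcnj8 stands highest in small intestinal CD31+ Rspo3+ cells, where Rgs5, Rgs4, Cspg4, Mcam and Ndufa4l2 have their lowest means.

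Among the surface proteins, Cspg4 was highest in the CD31- Rspo3- fractions and Mcam in the CD31+ Rspo3- fractions. Cspg4 was at 96.6, 56.4 and 72.2 CPM in small intestinal and 58.5, 86.9 and 50.7 CPM in colonic CD31- Rspo3- cells, and at 4.31, 3.56 and 0.593 CPM and 6.01, 2.56 and 4.71 CPM in the CD31+ Rspo3+ cells of the same tissues. The CD31- Rspo3+ libraries lay between, at 8.31 to 17.4 CPM in small intestine and 14.1 to 18.9 CPM in colon, and so did the CD31+ Rspo3- libraries, at 6.92 to 24.2 CPM and 17.1 to 34.8 CPM. Cspg4 was lower with the reporter in all 4 comparisons, with log2 changes from -2.57 to -1.95 (edgeR adjusted p from 0.000896 to 0.0164). The call in small intestinal CD31+ cells was lost when only the libraries compared were fitted (adjusted p = 0.05), and that in colonic CD31- cells without CD31- Rspo3+ library 1 (adjusted p = 0.0505) or without CD31- Rspo3- library 2 (adjusted p = 0.0648).

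Mcam, shared by pericytes and endothelium, was at 239, 82.5 and 163 CPM in small intestinal and 201, 303 and 194 CPM in colonic CD31+ Rspo3- cells. With the reporter, CD31+ cells had 13.5, 13.1 and 7.82 CPM in small intestine but 46.1, 45.6 and 48.9 CPM in colon. The CD31- libraries ran from 21.3 to 57.8 CPM without the reporter and from 7.94 to 17.7 CPM with it. No Rspo3+ library overlapped the Rspo3- libraries of its tissue and CD31 sign. Mcam fell with the reporter in small intestinal (log2 -3.80, SE 0.38, edgeR adjusted p = 3.67e-07) and colonic CD31+ cells (log2 -2.31, SE 0.35, adjusted p = 5.76e-05). It also fell in small intestinal CD31- cells (2.01-fold, adjusted p = 0.0327) and in colonic ones (log2 -2.03, SE 0.36, adjusted p = 0.00103). The small intestinal CD31- call was lost in 4 of 11 alternatives (adjusted p up to 0.117), without Rspo3- library 1 or 3 or Rspo3+ library 2 or 3. Among CD31+ Rspo3+ cells, colon was above small intestine by 2.01 (log2, SE 0.36, adjusted p = 0.0013).

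Both mitochondrial genes were highest in the CD31+ Rspo3- fractions. Ndufa4l2 was at 50.3, 30.3 and 43.3 CPM in small intestinal and 52.1, 27.1 and 42.5 CPM in colonic CD31+ Rspo3- cells, and at 0.780, 1.41 and 1.07 CPM and 1.5, 3.96 and 4.60 CPM in the CD31+ Rspo3+ cells of the same tissues. The CD31- cells lay between, at 7.51 to 11.6 CPM in small intestine and 5.12 to 21.2 CPM in colon. Ndufa4l2 was 38.0-fold lower with the reporter in small intestinal CD31+ cells (log2 -5.25, SE 0.43, edgeR adjusted p = 3.14e-08) and 12.1-fold lower in colonic ones (log2 -3.59, SE 0.39, adjusted p = 1.04e-06). In CD31- cells the log2 change was -0.29 (SE 0.35, adjusted p = 0.595) in small intestine. In colonic CD31- cells it was -1.23 (SE 0.36, edgeR adjusted p = 0.0362), a call lost in the same 7 alternatives as that of Abcc9 (adjusted p up to 0.193). Shmt2, which overlaps it on the other strand, averaged 28.8 and 35.3 CPM in the small intestinal CD31+ Rspo3- and Rspo3+ groups.

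Higd1b was the weakest of the 8, at 4.96, 7.34 and 4.57 CPM in small intestinal and 3.64, 4.97 and 3.97 CPM in colonic CD31+ Rspo3- cells. The CD31- Rspo3- libraries had 0.744 to 2.66 CPM. Of the 12 Rspo3+ libraries, 3 had a count of 0 and the highest had 0.696 CPM. Higd1b fell with the reporter in small intestinal (log2 -4.27, SE 1.01, edgeR adjusted p = 0.00436) and colonic CD31+ cells (log2 -4.12, SE 1.01, adjusted p = 0.00496) and in small intestinal CD31- cells (log2 -3.67, SE 1.03, adjusted p = 0.00994). In colonic CD31- cells the log2 value was -2.83 (SE 0.98, adjusted p = 0.0781). Rspo3+ library 3 held all the Higd1b counts of its group; without it the group was at 0 and the call was made (edgeR adjusted p = 0.00169), as it was by DESeq2 with all libraries (adjusted p = 0.0111).

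Counted over the 4 reporter comparisons, most members were lower with the reporter. The only calls upward were Kcnj8 in CD31+ cells of both tissues and Abcc9 in small intestinal CD31+ cells. Kcnj8 was lower in both CD31- comparisons and Abcc9 in both colonic ones. In small intestinal CD31+ cells 2 of 8 members were higher and 6 lower, where 9.23% of all tested genes were higher and 10.8% lower. In colonic CD31+ cells 1 was higher and 7 lower, with 9.52% of all genes higher and 13.6% lower. In small intestinal CD31- cells 5 were lower and 3 did not pass (16.1% of all genes higher and 14.3% lower), and in colonic CD31- cells 7 were lower and 1 did not pass (4.80% higher and 4.34% lower). The median log2 change of the members was -3.96, -3.08, -0.84 and -2.08 in these 4 comparisons, beside 0.00, -0.05, 0.11 and 0.00 over all tested genes. In the CD31- comparisons other cell types moved as well: the epithelial marker sum was 4319 to 7157 CPM in small intestinal CD31- Rspo3- cells and 39.0 to 142 CPM in CD31- Rspo3+ cells, and the enteric glia sum was 191 to 302 CPM against 7.23 to 15 CPM. All 7 epithelial and all 7 tested glial markers were lower in that comparison, and 7 of 8 fibroblast markers were higher. In colonic CD31- cells 6 of 7 tested glial markers were lower and 6 of 8 leukocyte markers higher, with the high leukocyte sum of Rspo3+ library 3 included. There 3 of 4 markers of interstitial cells of Cajal were lower, Kit not among them, and their sum was 556 to 694 CPM without the reporter and 92.5 to 140 CPM with it. In small intestinal CD31+ cells, where Kcnj8 rose, that sum was 512 to 597 CPM without and 929 to 985 CPM with the reporter. There Gja1 was higher, Ano1 lower, and Kit and Etv1 did not pass. In colonic CD31+ cells, where Kcnj8 also rose, the sum was 776 to 1125 CPM without and 632 to 714 CPM with the reporter. In CD31+ cells 9 of 10 blood endothelial markers were lower with the reporter in each tissue. Their part in these differences was not tested.

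**Figure D3:**
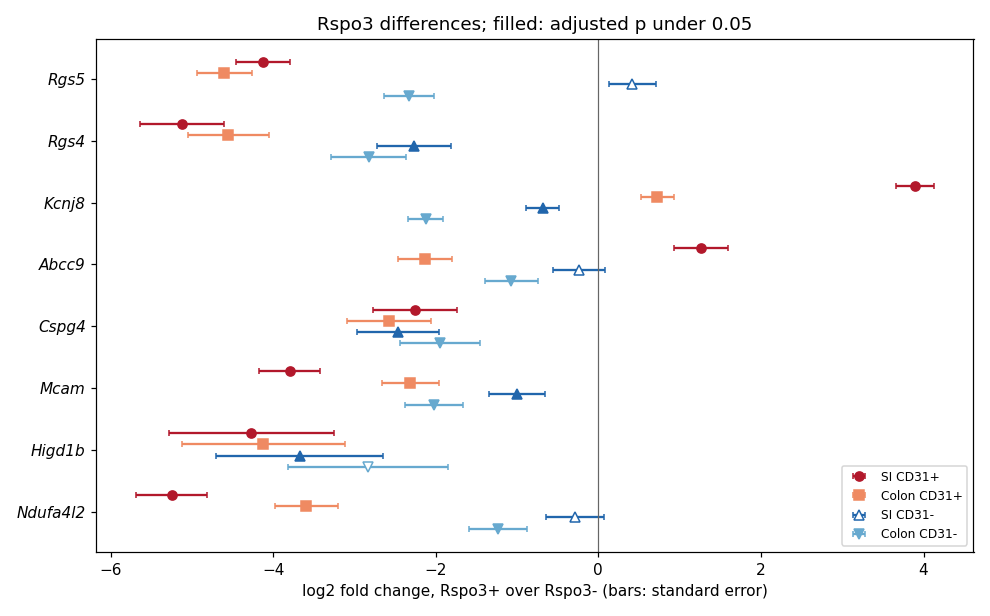
log2 fold change of each of the 8 genes, Rspo3+ over Rspo3-, with standard error, in the 4 combinations of tissue and CD31 sign; filled symbols have an edgeR adjusted p under 0.05. Kcnj8 is right of 0 in both CD31+ comparisons (3.89 and 0.73) and left of it in both CD31- comparisons, while Abcc9 is right of 0 in small intestinal CD31+ cells alone.

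Set against the CD31- fractions, the CD31+ cells differed by gene and by reporter. Among small intestinal Rspo3+ cells Kcnj8 was higher in CD31+ cells (log2 3.49, SE 0.22, edgeR adjusted p = 3.70e-10) and Rgs5, Cspg4 and Ndufa4l2 were lower (16.9% of all genes higher and 19.6% lower). Among colonic Rspo3+ cells Kcnj8 (log2 2.58) and Mcam (1.95) were higher and Rgs5, Abcc9 and Cspg4 lower (14.9% and 18.2%), where the Rgs5 call was lost in 5 of 11 alternatives, in the fit of the compared libraries alone and without library 2 or 3 of either group. The Abcc9 call was lost without library 1 or 2 of either group (adjusted p up to 0.1). Among small intestinal Rspo3- cells Rgs4, Mcam and Ndufa4l2 were higher in CD31+ cells and Kcnj8, Abcc9 and Cspg4 lower (20.1% and 21.6%). Among colonic Rspo3- cells Rgs5, Rgs4, Mcam and Ndufa4l2 were higher and Cspg4 lower (16.1% and 16.4%), the Cspg4 call (adjusted p = 0.0442) was lost without any 1 of the 6 libraries, and the Rgs4 call (adjusted p = 0.0238) without CD31+ library 1 or 3 or CD31- library 2 or 3. The reporter effect differed between CD31+ and CD31- cells in small intestine for 6 members, with Kcnj8 at 4.58 and Abcc9 at 1.5 on the log2 scale against -4.54 for Rgs5 and -4.96 for Ndufa4l2 (24.3% of all genes called). In colon it did so for Kcnj8 (2.85), Rgs5 (-2.27) and Ndufa4l2 (-2.36), where 17.0% of all genes were called.

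Between tissues both channel genes differed in each CD31+ fraction, in opposite directions. In CD31+ Rspo3+ cells Kcnj8 (log2 -2.15, SE 0.21, edgeR adjusted p = 4.53e-06) and Abcc9 (-1.68, SE 0.33, adjusted p = 0.00347) were lower in colon, and Mcam and Ndufa4l2 were higher (2.83% of all genes higher and 3.52% lower). In CD31+ Rspo3- cells the 2 channel genes were the members that passed, and both were higher in colon, Kcnj8 by 1.02 (SE 0.21, adjusted p = 0.00661) and Abcc9 by 1.71 (SE 0.33, adjusted p = 0.00442), where 2.72% of all genes were higher and 1.71% lower. The Kcnj8 call there was lost in the fit of the compared libraries alone (adjusted p = 0.103), without small intestinal library 2 or without colonic library 3. The Ndufa4l2 call in CD31+ Rspo3+ cells (log2 1.63, adjusted p = 0.0152) was lost in that fit (adjusted p = 0.132) and without library 1 or 3 of small intestine or 2 or 3 of colon. In CD31- Rspo3+ cells Rgs5 (-2.93) and Kcnj8 (-1.24) were lower in colon (3.62% higher and 3.40% lower). In CD31- Rspo3- cells edgeR's test called 0 of 8 members (17.6% of all genes called), with 1 member at an unadjusted p under 0.05 and 0 called by DESeq2.

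Ordered by mean CPM over the 8 groups, Kcnj8 ran from 338 CPM in small intestinal CD31+ Rspo3+ cells, through 76.3 CPM in the colonic ones and 55.5 CPM in colonic CD31- Rspo3- cells, to 12.7 CPM in colonic CD31- Rspo3+ cells, and 2 of the 7 pairs of neighbours in that order overlapped. Abcc9 ran from 40.7 CPM in colonic CD31+ Rspo3- cells to 9.28 CPM in colonic CD31+ Rspo3+ cells, and all 7 pairs of its neighbours overlapped. For Rgs5 the order ran from 441 CPM in colonic CD31+ Rspo3- cells to 13.7 CPM in small intestinal CD31+ Rspo3+ cells, with 4 of 7 pairs overlapping. On the TPM scale, which allows genes to be compared, Kcnj8 held on average 90.3% of the summed TPM of the 8 genes in small intestinal CD31+ Rspo3+ cells and 51.0% in the colonic ones, against 4.17% and 5.85% in the CD31+ Rspo3- cells of those tissues.

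Most other pericyte genes that passed the test in CD31+ cells were lower with the reporter, as Rgs5 was, and a few were higher, as Kcnj8 was. Of 20 further pericyte genes, 18 were tested, and 2 were higher and 11 lower in small intestinal CD31+ Rspo3+ cells and 3 higher and 13 lower in colonic ones, with median log2 changes of -1.46 and -1.71. The sum of the list was 775 to 890 CPM with the reporter and 1053 to 1216 CPM without it in small intestinal CD31+ cells. In colonic CD31+ cells the sums overlapped, at 1237 to 1488 CPM with the reporter and 1210 to 1399 CPM without it. Art3, an ADP-ribosyltransferase family member, fell in both tissues (log2 -3.74, SE 0.32, edgeR adjusted p = 4.28e-08, and -2.59, SE 0.30, adjusted p = 1.78e-06), and the transcription factor Tbx2 fell by 3.54 in small intestine. Gucy1b1, a subunit of the nitric oxide receptor guanylate cyclase, rose by 1.74 (SE 0.33, adjusted p = 0.000516) and 2.78 (SE 0.34, adjusted p = 3.79e-06), and its partner subunit Gucy1a1 rose by 1.84 (SE 0.20, adjusted p = 1.27e-06) in colon. Tbx18 and Zic1, transcription factors that define mural cells in other tissues, did not pass the low-count filter, and Tbx18 was listed at 0 in 15 of 24 libraries. Kcnj8 was highest in the CD31+ fraction where the means of Rgs5, Rgs4 and Ndufa4l2 were lowest. For Rgs5 and Rgs4 those libraries overlapped the colonic CD31+ Rspo3+ libraries.

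In CD31- cells the same 18 genes split. With the reporter 5 were higher and 5 lower in small intestine, and 1 was higher and 7 lower in colon, with medians of -0.21 and -0.96. Tbx2 fell in both (log2 -2.62 and -4.15), while Ebf1, a transcription factor of mural and stromal cells, rose in both (1.36 and 1.74). The small intestinal decrease of Anpep (log2 -5.20, SE 0.41, edgeR adjusted p = 6.17e-08), an aminopeptidase also made by enterocytes, moved with the epithelial marker sum given above, and the part of that sum was not tested.

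**Figure D4:**
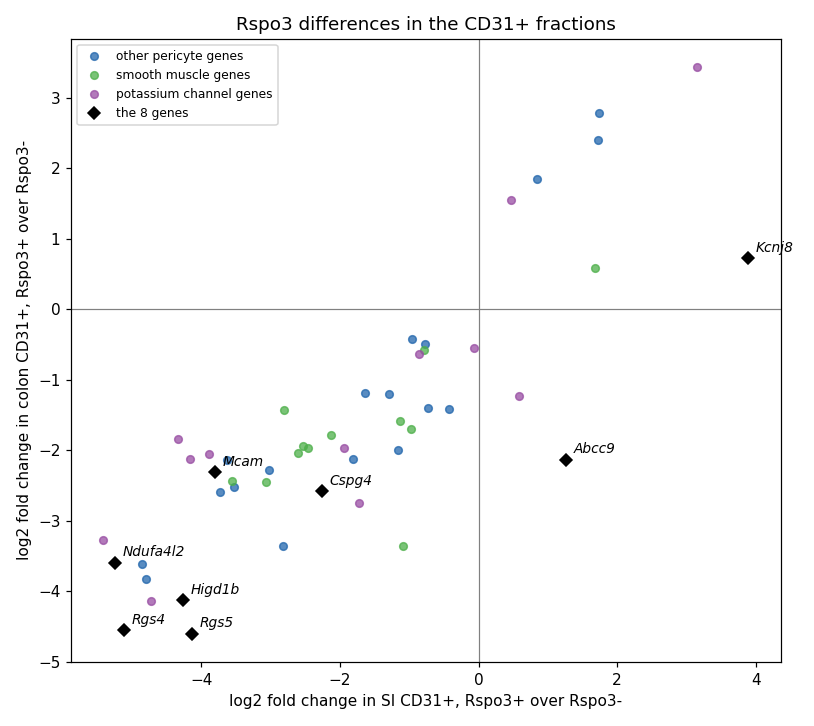
log2 fold change, Rspo3+ over Rspo3-, in small intestinal (horizontal) and colonic (vertical) CD31+ cells; diamonds are the 8 genes and circles the tested other pericyte, smooth muscle and potassium channel genes that are above 0 in every CD31+ group. Kcnj8 lies at 3.89 and 0.73, Abcc9 at 1.26 and -2.13, and the other 6 members are below 0 on both axes.

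Of 15 potassium channel genes other than the 2 members, 14 were tested in CD31+ cells, with 1 higher and 8 lower in small intestine and 1 higher and 7 lower in colon. The count of 8 was 5 when only the compared libraries were fitted. The sum of the list did not fall with these counts. In colonic CD31+ cells it was higher with the reporter, at 159 to 198 CPM against 94.0 to 98.1 CPM. In small intestinal CD31+ cells the sums overlapped, at 182 to 255 CPM with the reporter and 164 to 186 CPM without it. The gene that rose in both was Kcnn3, a calcium-activated small-conductance channel, which rose by 3.15 (SE 0.22, edgeR adjusted p = 4.06e-09) and 3.43 (SE 0.22, adjusted p = 2.57e-09). Kcna5, a voltage-gated channel, fell in both (log2 -4.73, SE 0.63, and -4.14, SE 0.62). In CD31- cells 1 was higher and 4 lower in small intestine and 2 were higher and 3 lower in colon. The count of 4 was 2 without Rspo3- library 1 or Rspo3+ library 2, and the colonic count of 2 ran from 0 to 3 over the alternatives and was 0 or 1 without any 1 of 5 libraries, all but Rspo3+ library 1.

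Most smooth muscle genes were lower in CD31+ Rspo3+ cells, 9 of 12 in small intestine and 10 of 12 in colon. All 12 were lower in colonic CD31- Rspo3+ cells. In small intestinal CD31- cells 1 of 12 was lower, a count that ran from 1 to 7 over the alternatives: 7 when only the compared libraries were fitted, 3 with DESeq2, and 2 with RLE scaling or without Rspo3- library 2, Rspo3+ library 1 or Rspo3+ library 3. Their median log2 change was -2.29 and -1.86 in the CD31+ comparisons. The sums of the list overlapped in small intestinal CD31+ cells, at 874 to 1035 CPM with and 872 to 1580 CPM without the reporter. In colonic CD31+ cells they were 496 to 615 CPM with and 916 to 1425 CPM without it. Smtn, a cytoskeletal protein of contractile cells, was the 1 that rose in CD31+ cells, by 1.68 (SE 0.17, edgeR adjusted p = 2.94e-07) and 0.59 (SE 0.16, adjusted p = 0.0110). Lmod1, an actin nucleator, fell in both (log2 -3.55, SE 0.40, and -2.44, SE 0.37). The summed smooth muscle markers were 3671 to 5142 CPM in colonic CD31- Rspo3- cells and 652 to 966 CPM in CD31- Rspo3+ cells, so they moved with the 7 members that fell there, and the part of smooth muscle cells was not tested.

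Of 5 tested regulators of G protein signalling of the same family, Rgs3 was lower in small intestinal CD31+ cells (log2 -0.62, SE 0.18, edgeR adjusted p = 0.0187) and Rgs2 in colonic ones (-1.15, SE 0.27, adjusted p = 0.00346), and the other 4 in each did not pass. The Rgs3 call was lost without Rspo3+ library 2 or 3. A further list held 7 tested mitochondrial genes: Higd1a, Higd2a, Ndufa4, Cox4i1, Cox4i2, Cox7a1 and Cox7a2. Cox4i2 is also counted among the other pericyte genes above. In small intestinal CD31+ cells 3 of the 7 were lower, with Ndufa4, the respiratory chain relative of Ndufa4l2, at -1.26 (SE 0.17). In colonic CD31+ cells 1 was higher and 1 lower, and the higher call was lost with no low-count filter and without Rspo3- library 1 or 2 or Rspo3+ library 2 or 3. In small intestinal CD31- cells all 7 of these were lower. The share of counts from mitochondrial genes was 2.67 to 4.82% in CD31- Rspo3- and 0.69 to 1.27% in CD31- Rspo3+ cells there, and its part was not tested. In colonic CD31- cells 2 were lower, a count of 5 once Rspo3- library 2 was left out, and of 1 in the fit of only the compared libraries or on leaving out Rspo3- library 1 or 3, or Rspo3+ library 1 or 2. Of 11 tested targets of hypoxia-inducible factor, 5 were lower in CD31+ Rspo3+ cells of each tissue, with Ankrd37 at -2.09 (SE 0.23) and -3.69 (SE 0.24), and Egln3, a prolyl hydroxylase of that pathway, rose by 2.17 (SE 0.42) in small intestine.

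Likeness of expression was measured as Pearson's r of log2 CPM over the 24 libraries, which share the same groups, among 11522 genes with at least 10 CPM in 1 group or more. Kcnj8 and Abcc9 gave 0.18 with each other, while Rgs4 and Ndufa4l2 gave 0.89, Rgs5 and Rgs4 0.78, and Kcnj8 and Ndufa4l2 -0.59. The genes most like Kcnj8 were Apol7e (0.89), Eif4e3 (0.87) and Chrnb1 (0.86). Apol7e averaged 87.4 CPM in small intestinal CD31+ Rspo3+ cells and at most 9.84 CPM in the other groups. The nearest to Rgs5 were Hotairm1 (0.95), Nkx2-3 (0.93) and Ints6l (0.93), and to Rgs4 they were Olfr558 (0.96), Gcnt2 (0.96) and St6galnac2 (0.94). Abcc9 had no close neighbour, with Trp53inp2 (0.77), Vangl1 (0.72) and Klhl18 (0.71) at the top. Those of Cspg4 were Ppfibp2, Filip1l and Slc26a2 (0.91 to 0.92), those of Mcam were Epas1, Bcam and Palmd (0.94 to 0.95), and those of Ndufa4l2 were Stom, Smad6 and Entpd1 (0.93 to 0.95). Higd1b stayed under 10 CPM in every group and was left out.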

How the data were processed

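RNA-seq libraries were made with a Qiagen kit and SMART-Seq v4 chemistry, per the labels' protocols; Salmon 1.3.0, R 4.0.1 and build mm10 are named per the submitters' processing notes, and which annotation release was used is not given there. The authors deposited estimated counts, whole in every cell, and log2 values of TPM + 1. Column names give the group by its signs but no replicate number, so library numbers follow column order.

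Counts were tested with edgeR 4.0.16 (quasi-likelihood F test, R 4.3.3), TMM scaling and the filterByExpr filter (a minimum count of 10 and a minimum total of 15), with all 24 libraries in 1 model. The threshold was a Benjamini-Hochberg adjusted p of 0.05 over the 19050 tested genes. The code was tested on simulated data. Libraries of a group correlated at 0.893 to 0.967 and each was kept as a replicate. DESeq2 1.42.0 and the other alternatives are given in the closing section. CPM is the count scaled to TMM-adjusted library size, and TPM was taken from the deposited log2 values. The members and gene lists were chosen with earlier results of these data known, and the TATA box was added after the windows had been read. Of 8 members, 6 had a RefSeq promoter window; Higd1b and Ndufa4l2 had none in the table. All members are covered in the 4 reporter comparisons. For the CD31, tissue and interaction comparisons the members that passed are named, and those not named did not pass. From each list up to 3 genes with the smallest adjusted p were named, and 1 that moved the other way. Low counts limit precision for Higd1b.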

Additional observations from a re-analysis of the deposited data

Results flagged for a closer look

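The reporter effect differed between groups for 13 member values, each by an edgeR quasi-likelihood test of the difference itself with an adjusted p under 0.05. Between tissues, colon minus small intestine, the effect in CD31+ cells differed for Kcnj8 by -3.17 (log2, SE 0.30) and for Abcc9 by -3.39 (SE 0.47). In CD31- cells it differed for Rgs5 by -2.74 (SE 0.42) and for Kcnj8 by -1.44 (SE 0.29). Of all tested genes, 1.93% passed this tissue test in CD31+ cells and 8.38% in CD31- cells.

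Between CD31+ and CD31- cells of small intestine, the reporter effect differed for Rgs5 by -4.54 (log2, SE 0.43), for Rgs4 by -2.85 (SE 0.64), for Kcnj8 by 4.58 (SE 0.30), for Abcc9 by 1.5 (SE 0.46), for Mcam by -2.79 (SE 0.49) and for Ndufa4l2 by -4.96 (SE 0.54). The Abcc9 value was the weakest of these, and its adjusted p was 0.0545 in 1 of 17 alternatives, without CD31- Rspo3- library 1. In colon the effect differed for Rgs5 by -2.27 (SE 0.42), for Kcnj8 by 2.85 (SE 0.30) and for Ndufa4l2 by -2.36 (SE 0.51). Of all tested genes, 24.3% passed this CD31 test in small intestine and 17.0% in colon. Kcnj8 is the member with a difference in all 4 of these tests.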

How the results depend on the processing

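The columns carry no replicate number, but their library IDs run in 6 sets of 4 consecutive IDs, each with the 4 fractions of 1 tissue. In each of 24 libraries the deviations from the group mean correlated best, on average, with those of its own set (r 0.0306 to 0.335 within sets), a hint from the data and not from the labels. A term for these sets (a replicate block), added after seeing the data, could be fitted for all but the tissue comparisons, since the sets lie within tissues. It lost the calls of Abcc9 (-1.07) and Ndufa4l2 (-1.21) in the Rspo3 comparison, colonic CD31-, added that of Rgs4 in the CD31 interaction, colon (-1.76), turned Higd1b in the CD31 comparison, colonic Rspo3+, to 0.023, and changed no other member call. Swaps within sets left the CD31+ channel difference at 2.55 with an exact p of 0.03125, the smallest that the 64 swaps can give. The CD31- channel difference stayed at -0.79, with an exact p of 0.0625 in the same swap test. Of 128 member values, 69 passed the test and 54 of these kept their call under all alternatives run: DESeq2, RLE scaling, no low-count filter, a fit of only the libraries compared, the ID sets, and leaving out each library. None of the 69 changed sign, and the 35 changes of sign were in values that had not passed. RLE scaling moved the median of all genes from 0.11 to 0 (log2) in the small intestinal CD31- Rspo3 comparison and from -0.12 to 0.00042 in the tissue interaction of CD31- cells. The cause of these changes was not tested, beyond the smaller number of libraries in some fits.

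Fitting only the libraries compared gave 1152 genes in place of 1741 in the Rspo3 comparison, colonic CD31-, and 320 in place of 844 in the tissue comparison, CD31+ Rspo3-. It left 1 member higher in place of 2 in the tissue comparisons of CD31+ Rspo3+ and CD31+ Rspo3- cells, and 1 in place of 0 in CD31- Rspo3- cells. DESeq2 called 1816 genes in place of 1209 in the tissue comparison, CD31+ Rspo3+, 1531 in place of 844 in CD31+ Rspo3-, 2077 in place of 1337 in CD31- Rspo3+, and 790 in place of 367 in the tissue interaction, CD31+, with 1 member higher there in place of 0. Abcc9 in the CD31 comparison, colonic Rspo3-, turned to -0.019 with DESeq2 and -0.018 with RLE scaling.

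Without 1 library at a time, genes called ran from 1059 to 2300 (from 1741) in the Rspo3 comparison, colonic CD31-, 749 to 912 (from 1209) in the tissue comparison, CD31+ Rspo3+, 523 to 804 (from 844) in the tissue comparison, CD31+ Rspo3-, 731 to 1385 (from 1337) in the tissue comparison, CD31- Rspo3+, 1966 to 2875 (from 3353) in the tissue comparison, CD31- Rspo3-, 233 to 374 (from 367) in the tissue interaction, CD31+ and 841 to 1817 (from 1597) in the tissue interaction, CD31-. Members called were higher in the Rspo3 comparison, small intestinal CD31+, 1 to 2 (from 2), lower in the Rspo3 comparison, small intestinal CD31-, 3 to 5 (from 5), higher in the Rspo3 comparison, colonic CD31+, 0 to 1 (from 1), lower in the Rspo3 comparison, colonic CD31-, 4 to 7 (from 7), lower in the CD31 comparison, colonic Rspo3+, 1 to 3 (from 3), lower in the CD31 comparison, colonic Rspo3-, 0 to 0 (from 1), higher in the tissue comparison, CD31+ Rspo3+, 1 to 2 (from 2), higher in the tissue comparison, CD31+ Rspo3-, 1 to 2 (from 2), higher in the tissue interaction, CD31+, 0 to 1 (from 0), higher in the CD31 interaction, small intestine, 1 to 2 (from 2). Abcc9 log2 values ran from -0.079 to 0.32 in the CD31 comparison, small intestinal Rspo3+, -0.20 to 0.30 in the CD31 comparison, colonic Rspo3-, -0.0094 to 0.56 in the tissue comparison, CD31- Rspo3-. Higd1b log2 values ran from -0.76 to 5.13 in the CD31 comparison, colonic Rspo3+, -0.95 to 0.18 in the tissue comparison, CD31+ Rspo3+, -4.13 to 2.28 in the tissue comparison, CD31- Rspo3+, -0.18 to 0.59 in the tissue comparison, CD31- Rspo3-, -0.50 to 0.60 in the tissue interaction, CD31+, -4.36 to 2.15 in the tissue interaction, CD31-, -1.20 to 0.67 in the CD31 interaction, small intestine, -1.94 to 3.92 in the CD31 interaction, colon. Ndufa4l2 log2 values ran from -0.24 to 0.20 in the tissue comparison, CD31+ Rspo3-. Rgs4 log2 values ran from -0.075 to 0.76 in the tissue comparison, CD31- Rspo3+, -0.86 to 0.091 in the tissue interaction, CD31-. Mcam log2 values ran from -0.48 to 0.14 in the tissue comparison, CD31- Rspo3+, -0.54 to 0.015 in the CD31 interaction, colon. Cspg4 log2 values ran from -0.47 to 0.026 in the tissue comparison, CD31- Rspo3-, -0.91 to 0.10 in the tissue interaction, CD31+, -0.20 to 0.90 in the CD31 interaction, small intestine. Rgs5 log2 values ran from -0.74 to 0.033 in the tissue interaction, CD31+.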
